A study of Mus musculus with 12 samples.

Results

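The granule proteases of mast cells were followed in cultures of murine bone marrow-derived mast cells (BMMCs), obtained by growing marrow progenitors in mast cell growth factors. The list held 10 genes, chosen by symbol: *Cpa3*, *Tpsb2*, *Tpsab1*, *Cma1*, *Mcpt1*, *Mcpt4*, *Mcpt8*, *Prss34*, *Gzmb* and *Ctsg*. Of these, 9 were found among the 16234 genes of the table, and *Tpsab1*, which RefSeq lists as a transcribed pseudogene beside *Tpsb2*, was not analysed here. After the filter on low counts, 8 of the 9 were tested together with all other genes (12208 in total), and *Mcpt1* did not pass this filter.

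The cells came from littermate mice whose *Elk4* genotype was labelled as wild type (WT), as heterozygous (HZ) or as knockout (KO), a conventional knockout on a C57BL/6N background, of both sexes and 6 to 12 weeks old. All groups had been grown with IL-3 and SCF for 4 to 8 weeks. Each genotype was sequenced unstimulated and after stimulation through FcϵRI, in which cells sensitized overnight with 0.5 µg/ml anti-DNP IgE were then given DNP-HSA at 100 ng/ml for 1 h. The study thus had 6 groups of 2 libraries, 12 in all. The paper gives the dose and time of stimulation in its RT-qPCR methods and does not repeat them for RNA-seq. Nothing in the labels says whether the replicates were separate mice, so p-values measure the spread between these libraries, which may be technical. If the libraries of a genotype shared a culture, differences between genotypes cannot be told apart from differences between cultures.

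Mast cells store their proteases in secretory granules, bound to the proteoglycan serglycin, and release them when IgE on FcϵRI is cross-linked by antigen. Carboxypeptidase A3 (*Cpa3*) trims amino acids from the ends of peptides, and tryptases such as that of *Tpsb2* cut after basic residues. Chymases such as those of *Mcpt1* and *Mcpt4* cut after aromatic residues, and *Cma1* encodes a further chymase. Granzyme B (*Gzmb*), cathepsin G (*Ctsg*), *Mcpt8* and *Prss34* encode further serine proteases, the last pair best known from basophils. Chymases, granzyme B and cathepsin G are made as inactive precursors, from which cathepsin C (*Ctsc*) removes a dipeptide.

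The genes lie in few places of the genome. In RefSeq's annotation of GRCm38.p6, 6 of the 10 genes stand in one cluster of 15 coding genes on chromosome 14, in the order *Cma1*, *Cma2*, *Mcpt1*, *Mcpt2*, *Mcpt9*, *Mcpt4*, *Mcpt8*, *Ctsg*, *Gzme*, *Gzmd*, *Gzmg*, *Gzmn*, *Gzmf*, *Gzmc* and *Gzmb*. A second cluster on chromosome 17 holds *Prss34*, *Tpsab1* and *Tpsb2* with the tryptase gene *Tpsg1*, and *Cpa3* lies on chromosome 3. Promoter sequence was found in RefSeq's table for 8 of the 10 genes. The 250 bases before the start of transcription are shown for 4 of them, all in the chromosome 14 cluster. *Ctsg* is shown as the gene whose level differed most between genotypes, *Mcpt8* as its neighbour in the cluster, and *Mcpt4* and *Mcpt1* as a pair with like promoters and unlike levels. The sequences are written 5′ to 3′ on the strand of the gene, with GRCm38.p6 positions, and capitals mark every match to one of the 7 motifs named next.
Ctsg (chr14:56102575-56102824, minus strand): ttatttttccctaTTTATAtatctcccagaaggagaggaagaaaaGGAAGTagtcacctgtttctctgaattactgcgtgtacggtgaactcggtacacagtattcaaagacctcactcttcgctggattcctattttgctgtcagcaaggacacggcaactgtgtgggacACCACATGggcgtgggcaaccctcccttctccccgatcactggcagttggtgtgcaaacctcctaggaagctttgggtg
Mcpt8 (chr14:56085198-56085447, minus strand): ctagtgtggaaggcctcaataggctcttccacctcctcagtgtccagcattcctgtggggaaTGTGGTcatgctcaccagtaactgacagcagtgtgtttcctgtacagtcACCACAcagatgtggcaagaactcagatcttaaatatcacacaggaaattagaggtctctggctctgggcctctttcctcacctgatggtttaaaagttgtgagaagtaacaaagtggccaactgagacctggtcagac
Mcpt4 (chr14:56062311-56062560, minus strand): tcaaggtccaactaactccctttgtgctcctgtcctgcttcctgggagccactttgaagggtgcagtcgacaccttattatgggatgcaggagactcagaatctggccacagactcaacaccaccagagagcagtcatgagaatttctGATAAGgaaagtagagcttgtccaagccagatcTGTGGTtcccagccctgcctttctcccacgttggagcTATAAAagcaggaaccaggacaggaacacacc
Mcpt1 (chr14:56017714-56017963, plus strand): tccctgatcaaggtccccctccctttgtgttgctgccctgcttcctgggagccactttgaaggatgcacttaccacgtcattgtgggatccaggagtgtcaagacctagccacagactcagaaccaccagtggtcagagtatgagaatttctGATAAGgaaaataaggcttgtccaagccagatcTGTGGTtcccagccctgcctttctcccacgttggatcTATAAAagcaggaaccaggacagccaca

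The motifs were GGAAGT for ETS factors such as ELK4 and a further ETS form, CCGGAA, then GATAAG for GATA factors, CATGTG for MITF, CACGTG as a further E-box, TGTGGT for RUNX factors, and the TATA box TATAAA, each searched on both strands. A match is a description of the letters and not a site that was shown to be bound. GGAAGT was found once in the *Ctsg* window, starting 205 bases before the start of transcription, and in no other of the 8 windows. It was found in 19.74% of all 32851 promoter windows of this length. CCGGAA was in none of the 8 windows, against 12.03% of all windows, and neither was CACGTG, against 6.021%. TGTGGT was in 6 of the 8 windows (*Cpa3*, *Ctsg*, *Gzmb*, *Mcpt1*, *Mcpt4* and *Mcpt8*), against 14.05% of all windows. TATAAA was in 4 (*Cpa3*, *Ctsg*, *Mcpt1* and *Mcpt4*), against 12.37%. CATGTG was in 2 windows (*Ctsg* and *Prss34*), against 12.25%, and its match in *Ctsg* overlaps the TGTGGT match there, both on the opposite strand. GATAAG was in the windows of *Mcpt1* and *Mcpt4* alone of the 8, against 6.548% of all windows. In both of these genes the GATA, RUNX and TATA matches followed each other in this order towards the start. Aligned over their whole length, the *Mcpt1* and *Mcpt4* windows were identical at 213 of 260 columns (81.9%), while the other 27 pairs among the 8 windows lay between 47.0% and 54.8%.

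The libraries held 29697958 to 35531667 counts on genes. The cells carried mast cell RNA: all 11 mast cell markers fixed for this check, among them *Kit* and *Fcer1a*, were detected, with a summed level of 22709.8 to 26733 CPM (counts per library size, with the size scaled by edgeR's TMM factors) in all groups. Single markers differed between genotypes. In unstimulated KO against WT, 7 were higher and 4 lower, with log2 fold changes from -2.89 to 0.34, where 44.6% of all genes passed. In unstimulated HZ against WT, 7 were higher and 1 lower (-0.21 to 0.44), where 51.4% of all genes passed. After stimulation, 5 were higher and 3 lower in KO (-1.87 to 0.42), and 4 higher and 4 lower in HZ (-1.35 to 0.21). There, 40.4% and 34.9% of all genes passed. In each of these comparisons except unstimulated HZ against WT, 1 marker was at least 1.5-fold lower. Markers of neutrophils and their precursors, which also make cathepsin G, summed to at most 0.515 CPM, and *Elane* and *Camp* were not among the 7 of 10 analysed. Of those 7, *S100a8*, *S100a9*, *Ltf*, *Ngp* and *Ly6g* had at most 3 counts in every library. Macrophage markers summed to 35.7 to 70.2 CPM, and eosinophil markers to at most 3.57 CPM. The part of other cell types in these libraries was not tested. *Elk4* itself, at rest, had 2426 and 2740 counts (73.2 and 78.3 CPM) in the WT libraries, 3238 and 2837 (93.2 and 86.0 CPM) in those of HZ, and 2613 and 2253 (69.7 and 63.5 CPM) in those of KO. At rest it passed as lower in KO, by -0.19 against WT (adjusted p = 0.00872 by edgeR), and as higher in HZ, by 0.24 (adjusted p = 0.000484 by edgeR). In stimulated cells it did not pass in KO against WT (-0.10, adjusted p = 0.208 by edgeR), and it passed as lower in HZ against WT (-0.17). Counts summed over all exons can miss the loss of a single exon, and the groups below are the libraries labelled WT, HZ and KO.

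The 9 proteases took 4.09% ± 0.0643 (SD, n = 2) of all counts in unstimulated WT, and nearly all of it came from *Cpa3*, *Cma1* and *Tpsb2*, which took 3.89% ± 0.0660 (SD, n = 2). Per length of transcript (FPKM), *Cpa3* was the most abundant gene of unstimulated WT cells at 11875 ± 39.8 (SD, n = 2), *Cma1* the second at 11242 ± 379 (SD, n = 2) and *Tpsb2* the fourth at 8591 ± 179 (SD, n = 2). The WT libraries of *Cpa3* (11847 and 11903 FPKM) and *Cma1* (11510.2 and 10974 FPKM) did not overlap, but in unstimulated KO their order was the reverse, with 12533 ± 169 FPKM for *Cpa3* and 14151 ± 127 for *Cma1* (SD, n = 2). *Gzmb* followed with 1064 FPKM (rank 26) and *Ctsg* with 343 FPKM (rank 136). The FPKM levels of *Mcpt4* (21.2, rank 3142) and *Mcpt8* (6.84, rank 6507) were far lower, and those of *Prss34* (0.399) and *Mcpt1* (0.0468) stood near the limit of detection. These BMMCs thus held RNA for a carboxypeptidase, a tryptase and a chymase at the top of the transcriptome, and very little of the chymase gene *Mcpt1*, although its upstream sequence above is close to that of *Mcpt4*.

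*Mcpt1* had 0 and 3 counts in the WT libraries, 2 and 6 for HZ and 1 and 5 for KO. After stimulation, the WT pair held 1 and 5, the HZ pair 0 and 4 and the KO pair 11 and 5. With at most 11 counts in a library, it did not pass the filter, and its differences were not tested. Few exact stretches were shared with near copies. Of all 50-base stretches of the longest GENCODE transcript, 5.48% of those of *Mcpt4* were also found in *Cma2* and 5.38% of those of *Cma1* in *Gm48934*. None of those of the other 8 listed genes were found in another gene. How many reads were counted for a near copy was not tested.

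**Figure D1:**
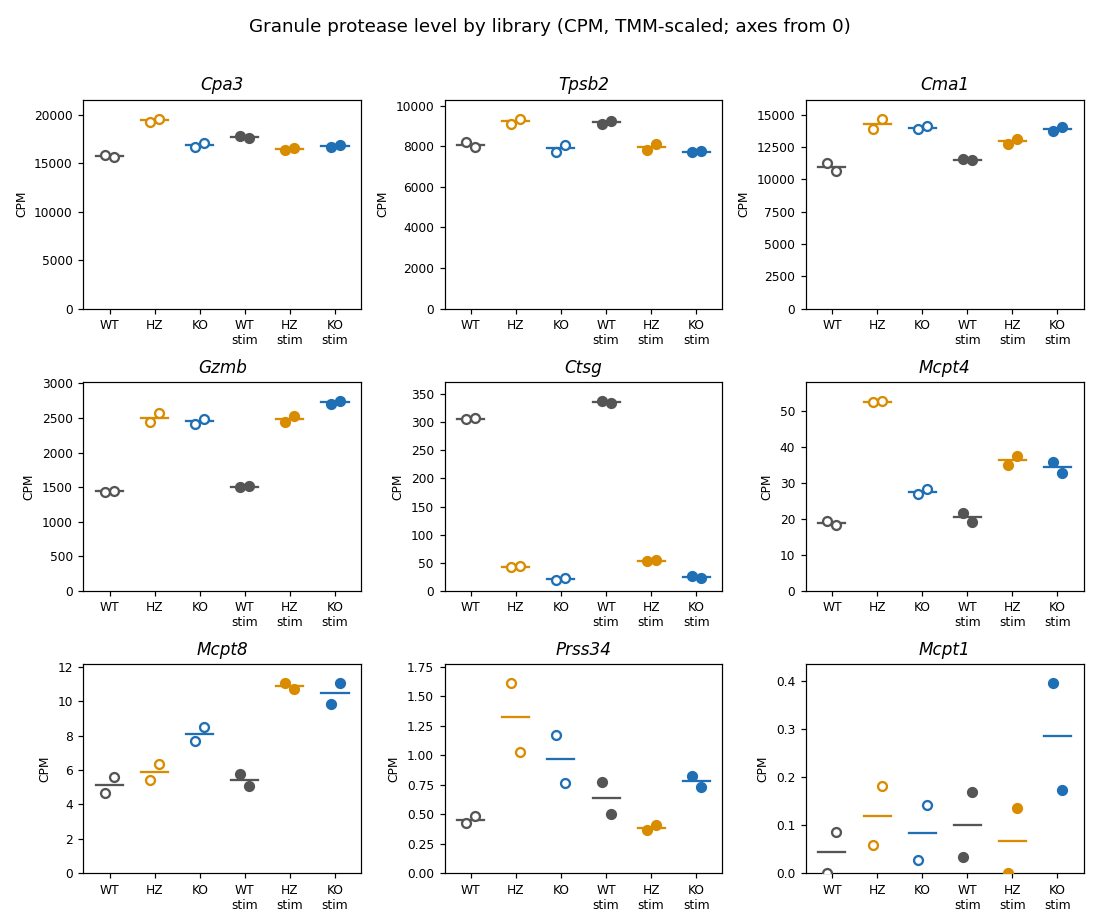
Level of each granule protease in the 12 libraries, in CPM scaled by TMM, with an axis from 0 for each gene. Open points are unstimulated and filled points stimulated libraries, and lines are means of 2 libraries. *Ctsg* stood between 305 and 338 CPM in the 4 WT libraries and between 19.9 and 54.0 CPM in the 8 others, while *Gzmb* was lower in the 4 WT libraries than in all others.

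Unstimulated BMMCs labelled KO were compared with those labelled WT to describe how they differed at rest. *Ctsg* was the protease that differed most and the only one that passed the test as lower. It fell 14.6-fold in KO, whereas *Gzmb* rose 1.71-fold, *Mcpt8* 1.58-fold, *Mcpt4* 1.47-fold, *Cma1* 1.28-fold and *Cpa3* 1.07-fold. With edgeR's quasi-likelihood model and p-values adjusted over all genes by Benjamini-Hochberg, 6 of the 8 proteases tested passed an adjusted p of 0.05, with 5 higher and 1 lower, against 44.6% of all genes tested. The median log2 fold change of the 8 was 0.46, and that of all genes 0.02.

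The unstimulated WT libraries held 10112 and 10750 counts of *Ctsg* (NCBI Gene 13035), those of HZ 1452 and 1447 and those of KO 746 and 782. After stimulation, the WT pair held 10044 and 9940 counts, the HZ pair 1717 and 1597 and the KO pair 717 and 649. All 4 WT libraries were high, all 4 HZ libraries were intermediate and all 4 KO libraries were low, without overlap. The log2 fold change in unstimulated cells was -3.87 in KO against WT (standard error 0.05, adjusted p = 1.27e-44 by edgeR), -2.84 in HZ against WT (standard error 0.05, adjusted p = 2.42e-41 by edgeR) and -1.03 in KO against HZ (standard error 0.06, adjusted p = 5.89e-20 by edgeR). In stimulated cells, the same differences were -3.80, -2.66 and -1.14. The HZ level was nearer to that of KO than to that of WT, at 42.8 ± 1.46 CPM against 21.0 ± 1.52 in KO and 306 ± 1.47 in WT (SD, n = 2 each). In bulk RNA, fewer cells that make a transcript and less of it per cell cannot be told apart.

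For *Gzmb* (NCBI Gene 14939), the unstimulated WT libraries held 47467 and 50475 counts, the HZ pair 84963 and 84665 and the KO pair 90746 and 88162. In stimulated cells, WT had 44441 and 45079 counts, HZ 80384 and 74767 and KO 75267 and 79101. The WT libraries were the lowest in both states. In CPM, the HZ and KO libraries overlapped at rest (2446 and 2567 in HZ, 2420.1 and 2485 in KO) and not after stimulation (2449 and 2529 in HZ, 2705 and 2749 in KO). *Gzmb* was higher than in WT by 0.77 in unstimulated KO and 0.80 in unstimulated HZ on the log2 scale, and KO and HZ differed by -0.03 (95% interval -0.08 to 0.01, adjusted p = 0.274 by edgeR), which became -0.07 and passed without replicate 1 of HZ (adjusted p = 0.0355 by edgeR). Granzyme B is also a product of cytotoxic lymphocytes, and of 8 markers of these cells the 3 analysed (*Nkg7*, *Ncr1* and *Eomes*) summed to 0.143 to 0.151 CPM in unstimulated WT, 1.58 to 2.12 in HZ and 1.55 to 1.63 in KO. Most of this came from *Eomes*, with 1 and 0 counts in WT against 49 and 64 in HZ, and 43 and 41 in KO, and *Nkg7* stayed at 7 counts or fewer in every library. The part of these few counts in the difference of *Gzmb* was not tested.

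The chymase gene *Mcpt4* (NCBI Gene 17227) was highest in HZ. At rest, the WT libraries had 639 and 635 counts of it, those of HZ 1818 and 1741, and those of KO 1005 and 1004. Its log2 fold change was 1.49 in HZ (standard error 0.08, adjusted p = 2.86e-21 by edgeR) and 0.56 in KO (standard error 0.08, adjusted p = 1.74e-07 by edgeR), and KO was lower than HZ by -0.93. *Cma1*, the chymase with by far the most RNA, differed less: 372593 and 372969 counts in WT, against 481401 and 484608 in HZ, and 521046 and 500580 in KO, gave log2 fold changes of 0.38 in HZ and 0.35 in KO. KO and HZ did not pass the test against each other for *Cma1* (-0.03, 95% interval -0.07 to 0.01), though without replicate 1 of HZ the difference was -0.07 and passed (adjusted p = 0.0067 by edgeR).

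*Cpa3* counts at rest were 523539 and 547073 for WT, 669763 and 646340 for HZ, and 624975 and 604303 for KO. The HZ libraries were the highest, with a log2 fold change of 0.31 against WT (adjusted p = 9.56e-23 by edgeR), and KO was higher than WT by 0.10 (adjusted p = 2.21e-07 by edgeR), a call that was lost with limma on unfiltered log2(FPKM + 1) (adjusted p = 0.166). *Tpsb2* counts were 272364 and 277665 for WT, 315444 and 308582 for HZ, and 289840 and 286163 for KO. It rose by 0.19 in HZ and was at -0.03 in KO (95% interval -0.07 to 0.01, adjusted p = 0.174 by edgeR), which became -0.06 with an adjusted p of 0.011 on library totals. Against HZ, unstimulated KO was lower in *Cpa3* by -0.21 and in *Tpsb2* by -0.22 on the log2 scale, so the HZ libraries were the highest of the 3 genotypes for both genes.

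The genes best known from basophils had few counts. *Mcpt8* (NCBI Gene 17231) was counted 155 and 195 times in the WT pair at rest, 188 and 209 times in the HZ pair and 289 and 302 times in the KO pair. Its log2 fold change was 0.66 in KO (standard error 0.16, adjusted p = 0.000483 by edgeR) and 0.19 in HZ (95% interval -0.13 to 0.52, adjusted p = 0.331). *Prss34* had 14 and 17 counts in the WT pair, 56 and 34 in the HZ pair and 44 and 27 in the KO pair. The HZ difference was 1.53 with a standard error of 0.53 (adjusted p = 0.0135 by edgeR), and it no longer passed without replicate 1 of WT, replicate 2 of WT or replicate 1 of HZ (1.44, 1.63 and 1.17). The KO difference of 1.09 did not pass (adjusted p = 0.0977 by edgeR). Of 5 basophil markers, *Itga2* had at most 16 counts in a library, and the other 4 (*Cd200r3*, *Il3ra*, *Itgb7* and *Cd69*) had at least 1810 counts in every library, so the list did not separate basophils from these cells. It summed to 1788 CPM in both unstimulated WT libraries, 1407 and 1424 in HZ and 1497 and 1511 in KO, and the part of basophils in the differences of *Mcpt8* and *Prss34* was not tested.

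In HZ against WT, 7 of the 8 proteases passed at rest (6 higher and 1 lower), against 51.4% of all genes tested, with a median log2 fold change of 0.34 against 0.00176 over all genes. Between KO and HZ, 5 passed (1 higher and 4 lower), against 45.2% of all genes. The one higher in KO was *Mcpt8* (0.47), whose call was lost without replicate 1 of HZ or replicate 2 of KO (0.36 and 0.39). Without replicate 1 of HZ, 6 passed, all lower in KO. With a fold change of at least 1.5 asked in addition, the counts were 3 in KO against WT (*Ctsg*, *Gzmb* and *Mcpt8*), 4 in HZ against WT (*Ctsg*, *Gzmb*, *Mcpt4* and *Prss34*) and 2 between KO and HZ (*Ctsg* and *Mcpt4*), against 12.8%, 16.9% and 9.72% of all genes. The share of all counts on the proteases was 4.92% ± 0.109 (SD, n = 2) in unstimulated HZ and 4.55% ± 0.0683 (SD, n = 2) in KO, above the 4.09% ± 0.0643 of WT without overlap between libraries.

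**Figure D2:**
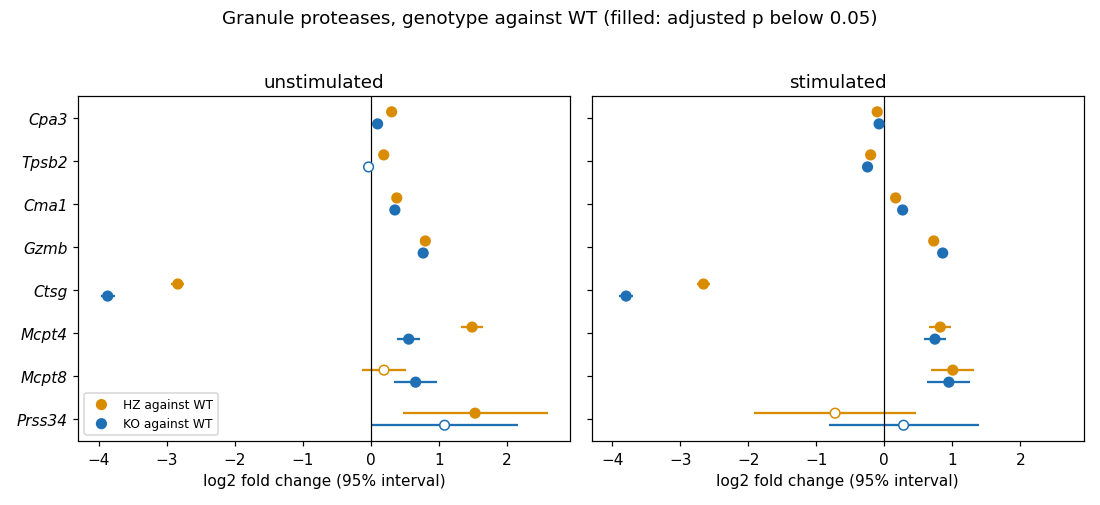
Log2 fold change of the 8 proteases tested in libraries labelled HZ or KO against WT, unstimulated on the left and stimulated on the right, with 95% intervals from edgeR. Filled points passed an adjusted p of 0.05. *Ctsg* lay between -3.87 and -2.66 in all 4 comparisons and *Gzmb* between 0.73 and 0.86, whereas *Cpa3* and *Tpsb2* lay within 0.31 of 0.

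Along the chromosome 14 cluster, the genotype differences changed from gene to gene. *Mcpt8*, next to *Ctsg* on one side, was higher in KO where *Ctsg* was 14.6-fold lower. On the other side, *Gzme* and *Gzmd* had at most 16 counts in each unstimulated library. *Gzmd* had 16 and 8 counts in the WT pair at rest, 10 and 1 in the HZ pair and 1 and 0 in the KO pair. After stimulation, the WT pair held 383 and 453 counts of it, the HZ pair 320 and 268 and the KO pair 155 and 228. *Gzmd* thus was lower in stimulated KO than in stimulated WT, at -1.06 on the log2 scale (its standard error being 0.20, adjusted p = 3.20e-05 by edgeR). At the ends of the cluster, *Cma1* and *Gzmb* were higher in both HZ and KO. *Mcpt2*, a further chymase gene, was higher in unstimulated KO by 0.93 (361 and 347 counts for WT, 779 and 668 for KO, adjusted p = 5.95e-10 by edgeR), and *Cma2* by 0.25 (adjusted p = 0.0294 by edgeR). Of the 13 relatives of the chymases and granzymes on the list, 8 were in the table and 6 were tested, and in unstimulated KO 2 were higher and 1 (*Gzmd*) lower, against 44.6% of all genes that passed in either direction.

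**Figure D3:**
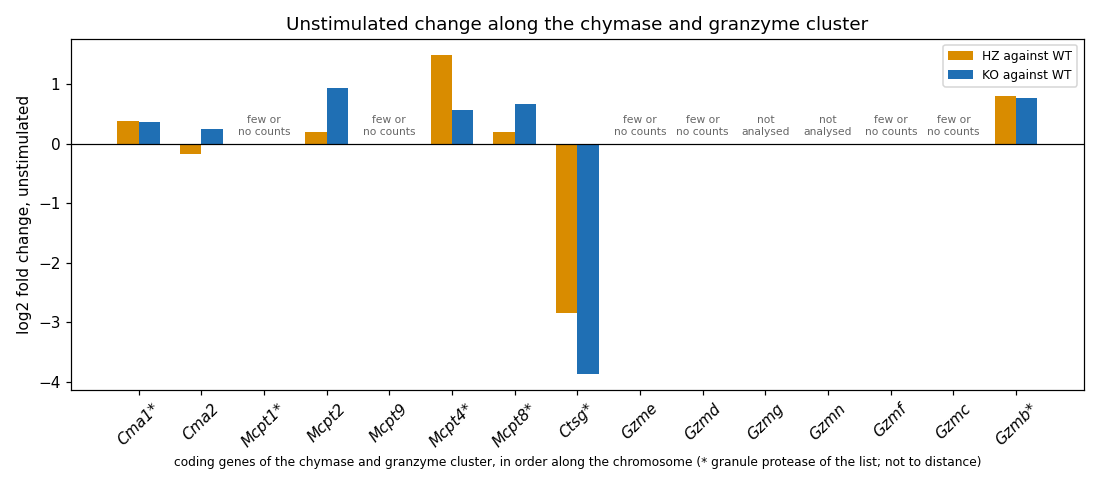
Log2 fold change in unstimulated HZ and KO against WT for the 15 coding genes of the chymase and granzyme cluster, in their order along the chromosome and not to distance. Bars are drawn for genes whose mean reached 100 counts in one of the 3 unstimulated groups. *Ctsg* had bars of -2.84 and -3.87, while *Mcpt8* next to it, *Mcpt4* beyond *Mcpt8* and *Gzmb* at the end had bars above 0.

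In stimulated cells, the proteases of KO and HZ were again compared with WT. *Ctsg* was 13.9-fold lower in KO and 6.32-fold lower in HZ. *Mcpt8* rose 1.93-fold in KO and 2.01-fold in HZ, *Gzmb* 1.81-fold and 1.65-fold, *Mcpt4* 1.67-fold and 1.77-fold, and *Cma1* 1.20-fold and 1.12-fold. *Cpa3* and *Tpsb2*, which were higher in HZ at rest, were lower than in WT here, *Tpsb2* by -0.25 in KO and -0.20 in HZ on the log2 scale, and *Cpa3* by -0.08 and -0.11. Both calls of *Cpa3* were lost with limma on unfiltered log2(FPKM + 1) (-0.08 in each, with adjusted p of 0.168 and 0.191). In CPM, *Cpa3* stood at 17812 and 17607 for stimulated WT, 16386 and 16544 for HZ, and 16649.9 and 16920.2 for KO, and *Tpsb2* at 9087 and 9242 for WT, 7831 and 8106 for HZ, and 7694 and 7747 for KO. For both genes the WT libraries lay above all others without overlap. Both comparisons had 7 of 8 proteases past the test (4 higher and 3 lower), against 40.4% of all genes tested for KO and 34.9% for HZ, and *Prss34* did not pass in either. Between stimulated KO and HZ, 3 passed (*Cma1* and *Gzmb* higher and *Ctsg* lower in KO), against 24.9% of all genes, and the call of *Cma1* was lost with limma on log2(FPKM + 1) (0.07, adjusted p = 0.0735).

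*Mcpt8* had 171 and 151 counts in the stimulated WT pair, 362 and 317 in the HZ pair and 274 and 318 in the KO pair, so that the HZ libraries, near WT at rest, stood with those of KO. The stimulated HZ and KO libraries did not pass the test against each other for *Mcpt8* (-0.06, 95% interval -0.35 to 0.24). *Mcpt4* had 646 and 573 counts in the stimulated WT pair, 1150 and 1108 in the HZ pair and 997 and 945 in the KO pair. The gap between KO and HZ, which was -0.93 at rest, was -0.08 after stimulation (95% interval -0.24 to 0.08, adjusted p = 0.526 by edgeR).

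In WT and KO, the response to stimulation was small for the proteases and depended on the scaling of the libraries. The TMM factors of unstimulated libraries lay between 1.08 and 1.12 and those of stimulated ones between 0.90 and 0.92, and scaling by library totals in their place moved the median response of all genes in WT from -0.01 to -0.32 on the log2 scale. In WT, *Cpa3* (0.17), *Tpsb2* (0.18), *Ctsg* (0.13), *Cma1* (0.07) and *Gzmb* (0.07) were higher after stimulation with TMM, and all 5 were lower on library totals (-0.14, -0.13, -0.17, -0.23 and -0.24). These 5 of the 8 proteases passed with either scaling, against 45.3% of all genes tested. As a share of all counts, which is a measure on library totals, the proteases took 3.64% ± 0.00537 in stimulated WT, 3.68% ± 0.0410 in HZ and 3.71% ± 0.0420 in KO (SD, n = 2 each), below the 4.09%, 4.92% and 4.55% at rest. The call of *Cma1* was lost without replicate 2 of WT, that of *Ctsg* without replicate 1 of stimulated WT, and that of *Gzmb* without replicate 1 of WT or replicate 2 of stimulated WT.

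In HZ, 7 of the 8 proteases passed, against 64.4% of all genes tested. *Cpa3* (-0.24), *Cma1* (-0.14), *Mcpt4* (-0.54), *Tpsb2* (-0.21) and *Prss34* (-1.77) were lower after stimulation, and they were also lower on library totals (-0.47, -0.37, -0.77, -0.44 and -2.001). *Mcpt8* rose by 0.89 with TMM and by 0.66 on library totals, and *Ctsg* rose by 0.31 with TMM and did not pass on library totals (0.08). *Mcpt8* went from 188 and 209 counts to 362 and 317, and *Mcpt4* from 1818 and 1741 to 1150 and 1108, in both cases without overlap. *Prss34* fell from 56 and 34 to 12 and 12 counts, and its call was lost without replicate 1 of unstimulated HZ (-1.41, adjusted p = 0.078 by edgeR). In KO, 4 passed, against 40.8% of all genes: *Mcpt8* (0.37), *Mcpt4* (0.32), *Ctsg* (0.20) and *Gzmb* (0.15) were higher with TMM, while on library totals *Mcpt8* and *Mcpt4* were at 0.08 and 0.03 and did not pass, *Gzmb* was lower (-0.14) and *Ctsg* was at -0.08. *Mcpt8* in KO lost its call without any one of the 4 KO libraries, and *Ctsg* without replicate 1 of either KO group.

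**Figure D4:**
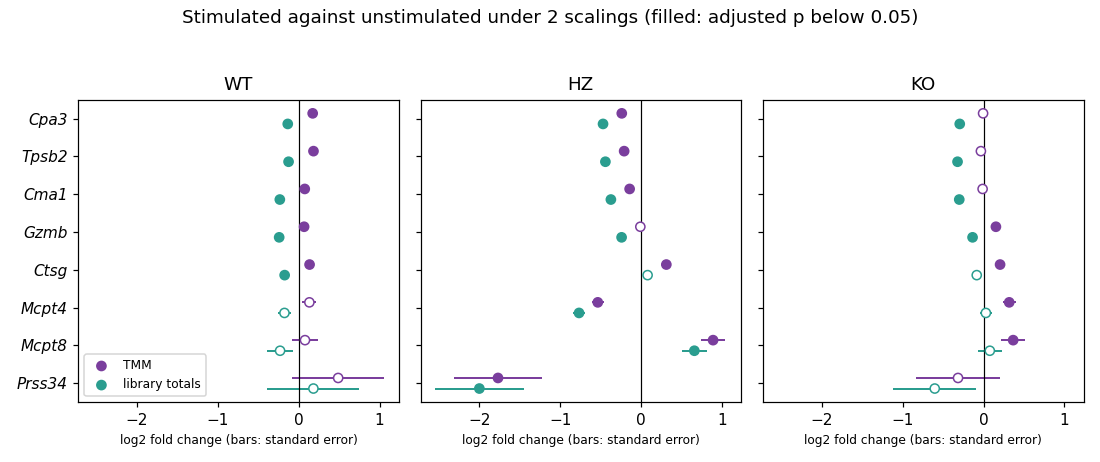
Log2 fold change of stimulated against unstimulated cells for the 8 proteases tested in WT, HZ and KO, with TMM factors and with library totals (2 scalings), and bars for the standard error. Filled points passed an adjusted p of 0.05. In WT, *Cpa3*, *Tpsb2*, *Cma1*, *Gzmb* and *Ctsg* lay above 0 with TMM and below 0 on library totals, and in HZ *Mcpt4* and *Prss34* lay below 0 and *Mcpt8* above 0 with both.

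Whether genotypes differed in this response was tested as an interaction. The response of KO minus that of WT passed for 3 of the 8 proteases, against 9.27% of all genes tested. It was lower for *Cpa3* (-0.18, standard error 0.02, adjusted p = 1.20e-08 by edgeR), *Tpsb2* (-0.21, standard error 0.03, adjusted p = 7.85e-08 by edgeR) and *Cma1* (-0.09, standard error 0.03, adjusted p = 0.0453 by edgeR). The *Cma1* difference was lost in DESeq2 (-0.09) and on library totals (-0.07, adjusted p = 0.12). The response of HZ minus that of WT passed for 7, against 38.5% of all genes, with *Mcpt8* (0.81) and *Ctsg* (0.18) higher and *Prss34* (-2.26), *Mcpt4* (-0.67), *Cpa3* (-0.41), *Tpsb2* (-0.39) and *Cma1* (-0.22) lower. The *Ctsg* difference was lost in DESeq2 (0.16, adjusted p = 0.0803) and with DESeq2 size factors in edgeR (0.16, adjusted p = 0.0567). Both differences share the WT libraries.

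The genes that ripen and store the proteases were followed as a list. *Ctsc*, whose product activates chymases, granzyme B and cathepsin G, had 10840 and 11220 counts in unstimulated WT and 44478 and 43605 after stimulation. It had 11948 and 11373 against 38617 and 34097 in HZ, and 11074 and 10647 against 31836 and 32501 in KO. Its response was 2.19 in WT, 1.76 in HZ and 1.93 in KO on the log2 scale with TMM, and 1.88, 1.53 and 1.64 on library totals. *Ctsc* thus rose in all 3 genotypes, and its response was smaller than in WT by -0.26 in KO (adjusted p = 8.52e-07 by edgeR) and -0.43 in HZ (adjusted p = 9.57e-14 by edgeR). *Srgn*, the serglycin core protein, differed little between unstimulated KO and WT (0.05, adjusted p = 0.0509 by edgeR). Of the 14 genes of maturation and storage, 13 were tested, and in unstimulated KO 4 were higher and 3 lower (44.6% of all genes passed). Among those whose higher group averaged 100 counts or more, the largest differences in unstimulated KO were those of *Ctse*, *Ndst1* and *Ctsd*. *Ctse*, encoding cathepsin E, was higher by 0.99 (606 and 567 counts for WT against 1314 and 1185 for KO). *Ndst1*, an enzyme that sulfates heparan sulfate, was lower (-0.64, 3884 and 4061 against 2813 and 2646 counts). *Ctsd*, encoding cathepsin D, was higher by 0.57.

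Of 12 genes of protease inhibitors on the list, 11 were tested. In unstimulated KO against WT 8 were higher and 2 lower, where 44.6% of all genes passed, with a median log2 fold change of 0.37 against 0.02 over all genes. In HZ against WT 7 were higher and 0 lower, where 51.4% of all genes passed, with a median of 0.32. Between KO and HZ 2 were higher and 2 lower, where 45.2% of all genes passed. *Serpinb1a* and *Serpinb6a*, inhibitors of serine proteases such as cathepsin G, were higher in KO by 0.56 each (57994 and 58698 counts of *Serpinb1a* for WT against 95279 and 89553 for KO, 5466 and 5401 counts of *Serpinb6a* for WT against 8732 and 8448 for KO). *Cstb*, an inhibitor of cysteine cathepsins, was higher by 0.51, while *Cst7*, which encodes cystatin F, an inhibitor of cathepsin C, fell by 0.10 (adjusted p = 0.0119 by edgeR). Among the tryptase relatives, *Tpsg1* was the only one of 9 that was tested. The unstimulated WT libraries had 24477 and 24606 counts of it, those of HZ 24056 and 24556 and those of KO 38668 and 37758, so that it was higher in KO by 0.54 (adjusted p = 4.76e-21 by edgeR) while *Tpsb2*, its neighbour on chromosome 17, was at -0.03.

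Genes whose pattern over the 12 libraries was most like that of a protease were named for the 4 proteases whose group means spanned at least 1 on the log2 scale. Likeness was the root mean square difference of centred log2 CPM, a description without a test. *Ctsg* spanned 4.00, and *Ptpn13*, a tyrosine phosphatase gene (0.230), and *Sulf2*, a heparan sulfate sulfatase gene (0.275), were nearest. *Ptpn13* had 4079 and 4082 counts in the unstimulated WT pair, 747 and 673 in the HZ pair and 382 and 322 in the KO pair. *Sulf2* had 1025 and 965, then 124 and 130, and 109 and 95 counts in the same groups. *Mcpt4* (span 1.49) was nearest to *Cadm1*, which encodes an adhesion molecule of mast cells (0.150), and to *Fads2*, a fatty acid desaturase gene (0.155). *Mcpt8* (1.09) was nearest to *Tmem267* (0.138) and *Zc3h8* (0.166), and *Prss34* (1.73) to *Cpeb3* (0.292) and *C8g* (0.306).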

How the data were processed

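RNA-seq of 12 BMMC libraries was analysed in 6 groups of 2, by genotype and treatment labels. The authors deposited raw read counts per gene and FPKM values of the same genes. The submitters' processing notes name fastp, HISAT2, HTSeq and the build GRCm39, without versions. The strand setting is not given in the sources used here.

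Counts were tested in R 4.3.3 with edgeR 4.0.16: filterByExpr, TMM factors, one quasi-likelihood model of the 6 groups, and Benjamini-Hochberg adjustment over the 12208 genes tested, with calls at an adjusted p below 0.05. CPM values used TMM factors. The deposited FPKM values gave levels per length. The biological coefficient of variation was 4.01%. In simulated counts where 200 genes were shifted by 1.5 on the log2 scale, 199 of the 200 were recovered by edgeR for stimulated against unstimulated WT. These counts were drawn with the spread that edgeR had estimated, and genes with few counts were not shifted. Recovery of smaller changes, or of genes with few counts, was thus not tested. Alternatives were DESeq2 1.42.0 and its size factors, library totals, TMM without the listed genes, other filters and thresholds, only the groups compared, replicate blocks, leaving out each library, and limma 3.58.1 on log2(FPKM + 1) and log2(FPKM + 0.1).

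Replicates differed beyond sampling noise (chi-square per degree of freedom 2.93 to 5.07). Promoters came from RefSeq's GRCm38.p6 table, shared 50-base stretches from GENCODE M21 transcripts, and both used Python 3.11.15 with Biopython 1.88. Named were all listed proteases, up to 3 genes per related list with the largest change in unstimulated KO (where the higher group averaged 100 counts or more), *Ctsc*, *Srgn*, *Cst7*, cell type markers, genes of like pattern and *Elk4*. *Gzmd* and *Gzme* were named after their values were seen. The members and lists were chosen with earlier results of these data known.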

Additional observations from a re-analysis of the deposited data

Results flagged for a closer look

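The response to stimulation differed between genotypes, by edgeR's interaction test with Benjamini-Hochberg adjustment, for 10 pairs of gene and genotype. Against WT, the log2 response of KO was lower for *Cpa3* (-0.18), *Cma1* (-0.085) and *Tpsb2* (-0.21). The response of HZ was lower for *Cpa3* (-0.41), *Cma1* (-0.22), *Mcpt4* (-0.67), *Tpsb2* (-0.39) and *Prss34* (-2.26), and higher for *Mcpt8* (0.81) and *Ctsg* (0.18). The *Cma1* difference in KO was lost without replicate 2 of WT, either replicate of stimulated WT, replicate 2 of KO or replicate 1 of stimulated KO. The *Ctsg* difference in HZ was lost without any WT or stimulated WT library, without replicate 1 of HZ and without replicate 2 of stimulated HZ. The *Prss34* difference, on 12 to 56 counts, was lost without replicate 1 of WT, stimulated WT, HZ or stimulated HZ (-2.16, -1.92, -1.90 and -2.18). No group was large enough for a check of single deviating libraries.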

How the results depend on the processing

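With 2 libraries per group, differences of proteases with many counts had standard errors near 0.02 on the log2 scale, and those of *Prss34* near 0.5. Differences of *Ctsg*, *Gzmb* and *Mcpt4* between a genotype and WT kept their direction under every alternative run. Where a difference passed in the edgeR fit or in the alternative, directions turned in the stimulation responses alone. Differences near 0 that passed in neither also changed sign elsewhere, such as *Cma1* between unstimulated KO and HZ (to 0.025 with a library left out) and *Cpa3* between stimulated KO and HZ (-0.0019 on library totals). On library totals, the WT responses were -0.14 (*Cpa3*), -0.23 (*Cma1*), -0.13 (*Tpsb2*), -0.24 (*Gzmb*) and -0.17 (*Ctsg*), and the KO responses -0.14 (*Gzmb*) and -0.084 (*Ctsg*). With limma on log2(FPKM + 1), filtered or not, and on log2(FPKM + 0.1), the first 6 of these responses were the same to 2 decimals, *Ctsg* in KO was at -0.082 and in the last at -0.085, and the response of *Mcpt4* in WT was -0.17 and -0.18 in the filtered fits. The cause of these turns other than the scaling was not tested. Asking for a 1.5-fold change moved the number of proteases that passed to 0, 2 and 0 (stimulation in WT, HZ and KO), 3, 4 and 2 (unstimulated KO against WT, HZ against WT and KO against HZ), 4, 4 and 1 (the same when stimulated), and 0 and 3 (response difference of KO and HZ). Shares of all genes at this fold were computed for the 3 unstimulated comparisons alone (12.8%, 16.9% and 9.72%). With limma on log2(FPKM + 1) without a filter, the KO response difference passed for 0. With single libraries left out, 4 passed for stimulation in WT, 6 to 7 in HZ and 2 to 3 in KO (2 without replicate 1 of stimulated KO), 6 to 7, 6 to 7 and 4 to 6 between unstimulated genotypes, 7, 7 and 3 to 4 between stimulated ones, and 2 to 3 and 5 to 7 for the response differences.

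The replicate numbers did not pair the libraries (correlations of -0.036 to 0.063 between groups over 9858 genes). With a replicate block, the numbers of proteases that passed were 5, 7 and 4 for stimulation, 6, 7 and 5 between unstimulated and 7, 7 and 3 between stimulated genotypes, and 4 and 8 for the response differences. With the block within genotype, they were 5, 7 and 3 for stimulation, and 4 and 8 for the response differences. The shares of all genes given above come from the edgeR fit with TMM and no block. For the replicate blocks and other alternative fits, no such share stands beside the numbers of proteases.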
